A study of Homo sapiens with 6 samples.

Results

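The Hippo kinase cascade was described in HCT116 cells through 10 genes chosen by name. They are STK3 and STK4 (the MST2 and MST1 kinases), their scaffold SAV1, the kinases LATS1 and LATS2, the LATS cofactors MOB1A and MOB1B, and the upstream regulators NF2 (merlin), WWC1 (KIBRA) and TAOK1. A transcript was a member when its gene symbol was one of these, and its counts were summed per gene. This gave 79 transcripts of 10 genes, out of 151453 transcripts of 40173 genes. All 10 genes and 44 of the 79 transcripts passed the filter on low counts.

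HCT116 is a human colon cancer cell line. Cells transduced with a control lentivirus (MOCK) were compared with cells transduced with a lentivirus that expresses the cytoglobin (CYGB) coding sequence, fused to a FLAG tag, from a constitutive construct. Both groups came from the same line, carried an integrated virus and had been selected with puromycin, so each group is a selected population of 1 cell line and not a tissue. There were 3 RNA-seq libraries per group, which the design calls biological replicates. The sources do not say whether they go back to separate transductions. The p-values therefore judge group differences against the spread between these libraries, which may not include the spread between transductions.

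The Hippo pathway is a chain of protein kinases that restrains growth and senses cell density, cell contact and the state of the cytoskeleton. TAO kinases and membrane scaffolds such as merlin and KIBRA help to activate MST1 and MST2, which act with SAV1 to phosphorylate LATS1 and LATS2 and their MOB1 cofactors. LATS kinases then phosphorylate YAP1 and TAZ, which keeps these coactivators out of the nucleus and away from the TEAD transcription factors. Much of this control is exerted on protein phosphorylation and stability, which RNA counts do not measure.

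Counts assigned to genes ranged from 47193496 to 53531777 per library. The introduced gene matched the labels, since CYGB was counted 10, 28 and 34 times in MOCK replicates 1 to 3 and 34935, 27681 and 32333 times in CYGB replicates 1 to 3. The epithelial markers EPCAM, KRT8, KRT18 and CDH1 were abundant in all 6 libraries, with EPCAM lowest in CYGB replicate 3 at 159 CPM (counts scaled to the normalized library size) against 307 to 341 CPM in the others. CLDN4 had 6 to 87 counts, and CDX1 was not analysed here. The 5 epithelial markers with values summed to 2620 to 2899 CPM in MOCK and 2382 to 2958 CPM in CYGB. Of 6 markers of other cells, PTPRC, CD3E, COL1A2 and PECAM1 had 0 to 13 counts, PDGFRB 12 to 60, and COL1A1 was at 44.3 to 53.8 CPM in every library. These 6 summed to 45.6 to 51.4 CPM in MOCK and 47.7 to 55.1 CPM in CYGB.

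No cascade gene passed a test of a difference between CYGB and MOCK cells. With edgeR's quasi-likelihood test, 0 of 10 members had a Benjamini-Hochberg adjusted p under 0.05, against 0.055% of all 19987 genes tested. By the threshold of the study's methods, an unadjusted p of at most 0.01 with a ratio of at least 2 or at most 0.5, 0 members passed, against 0.565% of all genes. At an unadjusted p under 0.05 there were 0 members, against 907 of all genes, and DESeq2 called 0 members under either rule. The 3 CYGB libraries overlapped the 3 MOCK libraries for all 10 members, while 11.0% of all genes did not overlap. Overlap was judged on CPM, since raw counts also follow library size. Estimated differences were below 0 for 6 members and above 0 for 4, with a median log2 fold change (CYGB over MOCK) of -0.04, beside -0.01 over all genes. The median size of the change was 0.10 on the log2 scale for the members and 0.18 for all genes. The lowest adjusted p of a member was 0.963. For 7 members the 95% interval excluded a 2-fold change either way, and for 6 it lay within 0.5 on the log2 scale either side of 0. In bulk RNA, fewer cells that express a gene and less RNA per cell cannot be told apart.

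**Figure D1:**
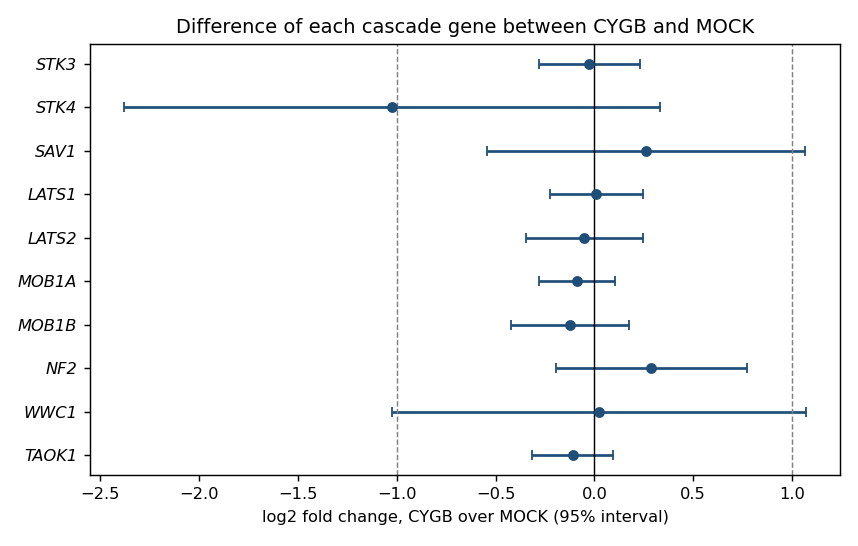
Log2 fold change of each of the 10 cascade genes, CYGB over MOCK, with its 95% interval from the edgeR quasi-likelihood fit (3 libraries per group). All 10 intervals include 0, and those of STK4, SAV1 and WWC1 are the ones that reach beyond a 2-fold change.

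To place the members beside each other, counts were divided by transcript length and scaled to TPM (the length-corrected counterpart of CPM). MOB1A was the most abundant, at 119 ± 1.70 TPM in MOCK and 115 ± 11.0 TPM in CYGB (mean ± SD, n = 3, as for all means below). WWC1 followed with a median of 63.0 TPM over the 6 libraries, then SAV1 with 49.7, STK3 with 46.3, TAOK1 with 43.1, MOB1B with 34.5 and NF2 with 28.0 TPM. LATS2, at 20.5 TPM, and LATS1, at 16.6 TPM, were lower, and STK4 was the least abundant at 4.90 TPM. Of neighbours in this order, MOB1A and WWC1, LATS2 and LATS1, and LATS1 and STK4 had ranges over the 6 libraries that did not overlap, and the other neighbours could not be ordered beyond their spread. The members lay between the 71.5th percentile (STK4) and the 96.8th percentile (MOB1A) of all annotated genes with a transcript length. These include the genes that failed the filter on low counts, so a percentile among the genes tested would be lower.

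**Figure D2:**
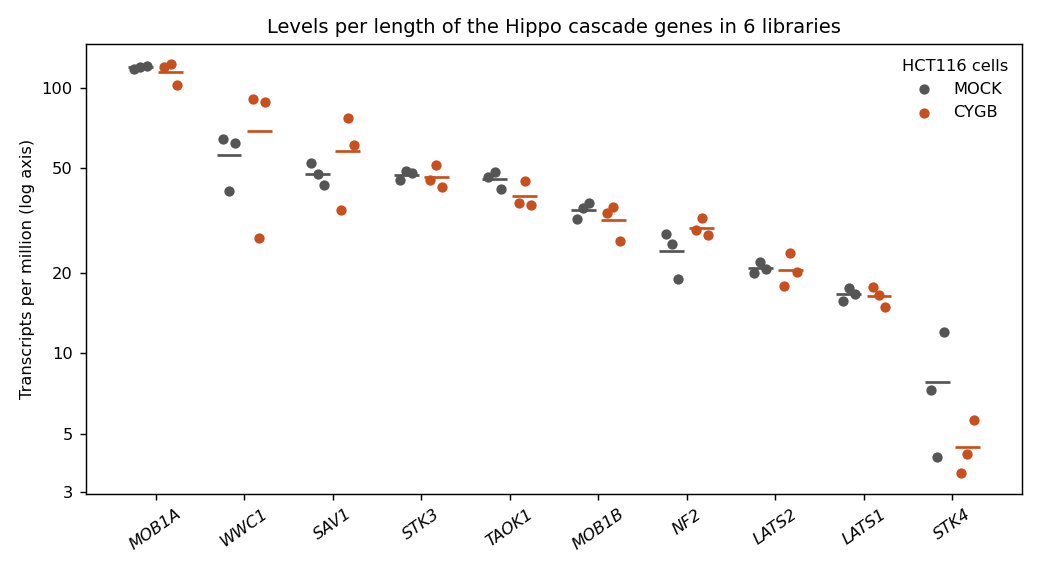
Level per transcript length (TPM, log axis) of the 10 cascade genes in each MOCK and CYGB library, with points for libraries and short horizontal lines for group means. MOB1A lies highest and STK4 lowest, and the points of the groups overlap for every gene.

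Among the upstream regulators, TAOK1, a kinase that phosphorylates MST1 and MST2, lies at chr17:29390464-29551904 on the plus strand (GRCh38, ENSG00000160551). It had 11400, 13302 and 13077 counts in MOCK and 10773, 12867 and 11851 in CYGB. The libraries were close to each other, with 249 ± 6.78 CPM in MOCK and 231 ± 20.5 CPM in CYGB. The log2 fold change was -0.11 (SE 0.08, 95% interval -0.32 to 0.10), with an adjusted p of 0.963.

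NF2, the FERM-domain scaffold merlin, lies at chr22:29603556-29698598 on the plus strand (ENSG00000186575). Its counts were 3810, 3699 and 2417 in MOCK and 4085, 4129 and 4160 in CYGB. In CPM these were 80.7, 70.0 and 47.0 against 80.9, 81.3 and 79.2, so MOCK replicate 3 was low and the CYGB libraries were nearly equal. MOCK replicate 1 lay inside the CYGB range. The log2 fold change was 0.29 (SE 0.20, 95% interval -0.20 to 0.77), with an adjusted p of 0.963, and without MOCK replicate 3 it was 0.09.

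WWC1, the scaffold KIBRA that works with merlin, lies at chr5:168291651-168472303 on the plus strand (ENSG00000113645). It was at 165, 96.2 and 161 CPM in MOCK and 181, 64.4 and 185 CPM in CYGB, from 3272 to 9690 counts per library. Replicate 2 was the lowest library of each group, and the spread within groups exceeded the difference between them. The log2 fold change was 0.03 (SE 0.43, 95% interval -1.02 to 1.07, adjusted p = 0.999), an interval that leaves a 2-fold change in either direction undecided.

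At the core of the cascade, STK3 had 2772, 3291 and 3168 counts in MOCK and 2899, 3389 and 2899 in CYGB. Its means were 60.8 ± 1.90 and 59.8 ± 6.10 CPM. The gene (ENSG00000104375) lies on the minus strand of chromosome 8, and its log2 fold change was -0.03 (SE 0.10, 95% interval -0.28 to 0.23, adjusted p = 0.993).

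STK4, the paralogue of STK3, lies at chr20:44966474-45079959 on the plus strand (ENSG00000101109) and had the fewest counts of the members. They were 430, 208 and 744 in MOCK and 119, 244 and 334 in CYGB. The MOCK libraries spanned the range of the CYGB libraries except for CYGB replicate 1, the lowest of the 6. With 9.16 ± 5.26 CPM in MOCK and 4.51 ± 2.02 CPM in CYGB, the log2 fold change was -1.02 (SE 0.56, 95% interval -2.38 to 0.33). This was the largest estimate among the members and had the lowest unadjusted p, 0.115 (edgeR), with an adjusted p of 0.963. Expressed as a ratio, the interval ran from 0.192 to 1.26. The estimate depended on single MOCK libraries, at -0.53 without MOCK replicate 3 and -1.39 without MOCK replicate 2 (unadjusted p = 0.0284, adjusted p = 1.00, edgeR).

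SAV1, the WW-domain scaffold that holds MST1 and MST2, lies at chr14:50632058-50668331 on the minus strand (ENSG00000151748). It had 3531, 3302 and 3023 counts in MOCK and 2128, 5347 and 4616 in CYGB. CYGB replicate 1 was below all MOCK libraries and the other CYGB libraries were above them. The log2 fold change was 0.26 (SE 0.33, 95% interval -0.54 to 1.07), with an adjusted p of 0.964. It was 0.56 without CYGB replicate 1 (unadjusted p = 0.0133, adjusted p = 0.962, edgeR) and -0.0092 without CYGB replicate 2.

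The LATS kinases, which phosphorylate YAP1, varied little. LATS1, at chr6:149658153-149718256 on the minus strand (ENSG00000131023), had 2559, 3196 and 2776 counts in MOCK and 3002, 2883 and 2811 in CYGB, with a log2 fold change of 0.01 (SE 0.10, 95% interval -0.23 to 0.24, adjusted p = 0.998). LATS2, at chr13:20973032-21061547 on the minus strand (ENSG00000150457), had 2742, 3238 and 3008 counts in MOCK and 2502, 3302 and 2999 in CYGB, with a log2 fold change of -0.05 (SE 0.12, 95% interval -0.35 to 0.25, adjusted p = 0.986). Across the 6 libraries the highest CPM of LATS1 was 1.13 times its lowest, the narrowest range of the members.

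MOB1A and MOB1B encode closely related cofactors that bind and activate LATS kinases. MOB1A, at chr2:74152528-74178898 on the minus strand (ENSG00000114978), had 13519, 15124 and 14556 counts in MOCK and 13945, 14443 and 12813 in CYGB, with a log2 fold change of -0.09 (SE 0.08, 95% interval -0.28 to 0.10, adjusted p = 0.963). MOB1B, at chr4:70902326-71022449 on the plus strand (ENSG00000173542), had 5183, 6325 and 5931 counts in MOCK and 5562, 5982 and 4641 in CYGB, with a log2 fold change of -0.12 (SE 0.12, 95% interval -0.42 to 0.17, adjusted p = 0.963). CYGB replicate 3 was the lowest library for both, and the groups overlapped for each gene.

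The members fell into steady and variable genes. The coefficient of variation between MOCK libraries was above the median of all genes (18.0%) for STK4 (57.4%), WWC1 (27.4%) and NF2 (26.2%), and between CYGB libraries it was above the median (18.6%) for WWC1 (47.7%), STK4 (44.8%) and SAV1 (41.6%). For the other members it lay between 0.695% and 14.5% in either group. The ratio of the highest to the lowest library was 6.14 for STK4, 2.87 for WWC1, 2.50 for SAV1 and 1.73 for NF2, and at most 1.36 for the remaining 6 genes.

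For the 3 pairs of paralogues, the ratio of counts within a library needs no scaling between libraries. The ratio of STK3 to STK4 was 6.45, 15.8 and 4.26 in MOCK and 24.4, 13.9 and 8.68 in CYGB, so STK3 had the larger count in every library. The ratio of LATS1 to LATS2 was between 0.873 and 1.20, and that of MOB1A to MOB1B between 2.39 and 2.76. The groups overlapped in all 3. On the log2 scale the CYGB minus MOCK difference was 0.92 for STK3 to STK4 (exact permutation p = 0.3), 0.07 for LATS1 to LATS2 (exact permutation p = 0.8) and 0.04 for MOB1A to MOB1B (exact permutation p = 0.6). The difference of STK3 to STK4 was 0.50 without MOCK replicate 3, 0.54 without CYGB replicate 1, 1.45 without MOCK replicate 2 and 1.48 from protein-coding transcripts alone. These exact two-sided permutation tests cannot go below p = 0.1 with 3 libraries against 3. The p-values of these 3 ratios, and of the 10 transcript shares below, are unadjusted.

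The table was deposited per transcript, and the members divided into genes with 1 dominant transcript and genes whose counts were spread over several. The most abundant transcript held 99.7 to 100% of the counts in every library for LATS2 (LATS2-201), 98.8 to 99.1% for MOB1A (MOB1A-201), 98.4 to 99.6% for TAOK1 (TAOK1-201), 95.2 to 99.1% for MOB1B (MOB1B-201) and 87.2 to 94.3% for LATS1 (LATS1-207). Protein-coding transcripts held 98.6% of all member counts, and 12 transcripts with retained introns held 0.759%. No transcript of a member passed the threshold of the methods, 0 of 44 tested, against 1.02% of 66609 transcripts. With an adjusted p under 0.05 there were also 0, against 0.015%, and the lowest adjusted p of a member transcript was 1.00. At an unadjusted p under 0.05 edgeR gave 2, STK3-202 and WWC1-201, against 2517 of all transcripts. DESeq2 gave 0 with an adjusted p under 0.05 and 1 past the threshold of the methods, STK3-202. The groups did not overlap for 3 of 44 (6.82%), against 10.4% of all transcripts tested. The median size of the change was 0.51 on the log2 scale for the member transcripts and 0.38 for all transcripts, the opposite order to that of the gene sums.

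STK3 was the member for which the share of the most abundant transcript did not overlap between the groups. Its most abundant transcript STK3-219 had 1869, 2166 and 2006 counts in MOCK and 1164, 1447 and 1832 in CYGB, and STK3-201, which encodes a longer protein, had 869, 1080 and 1127 against 1650, 1892 and 1023. The share of STK3-219 was 67.4, 65.8 and 63.3% in MOCK and 40.2, 42.7 and 63.2% in CYGB. CYGB replicates 1 and 2 were low, while CYGB replicate 3 lay just under the lowest MOCK library. The mean difference was -16.8 percentage points (exact permutation p = 0.1, the smallest possible with 3 against 3). For STK3-201 the shares overlapped, at 31.3, 32.8 and 35.6% in MOCK and 56.9, 55.8 and 35.3% in CYGB. Of genes with at least 2 tested transcripts, the share of the most abundant one did not overlap for 10.6% of 11465. Among 9 members with such transcripts this held for STK3 alone. The per-transcript tests gave a log2 fold change of -0.45 for STK3-219 (SE 0.20) and 0.57 for STK3-201 (SE 0.29), and neither passed. The nonsense-mediated decay transcript STK3-202 had 4, 7 and 2 counts in MOCK and 34, 23 and 12 in CYGB, with a log2 fold change of 2.38 (SE 0.66, unadjusted p = 0.0123, edgeR), and it made up at most 1.17% of the gene in any library. The sum of STK3-219 and STK3-201 was 2738, 3246 and 3133 in MOCK and 2814, 3339 and 2855 in CYGB, and these sums overlapped between the groups. Only 0.086% of the 150-base windows of STK3-219 and 0.374% of those of STK3-201 occur in no other annotated transcript. This share does not measure how well reads tell these 2 transcripts from each other. STK3-201 has coding stretches of 168 and 165 bases that STK3-219 lacks.

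**Figure D3:**
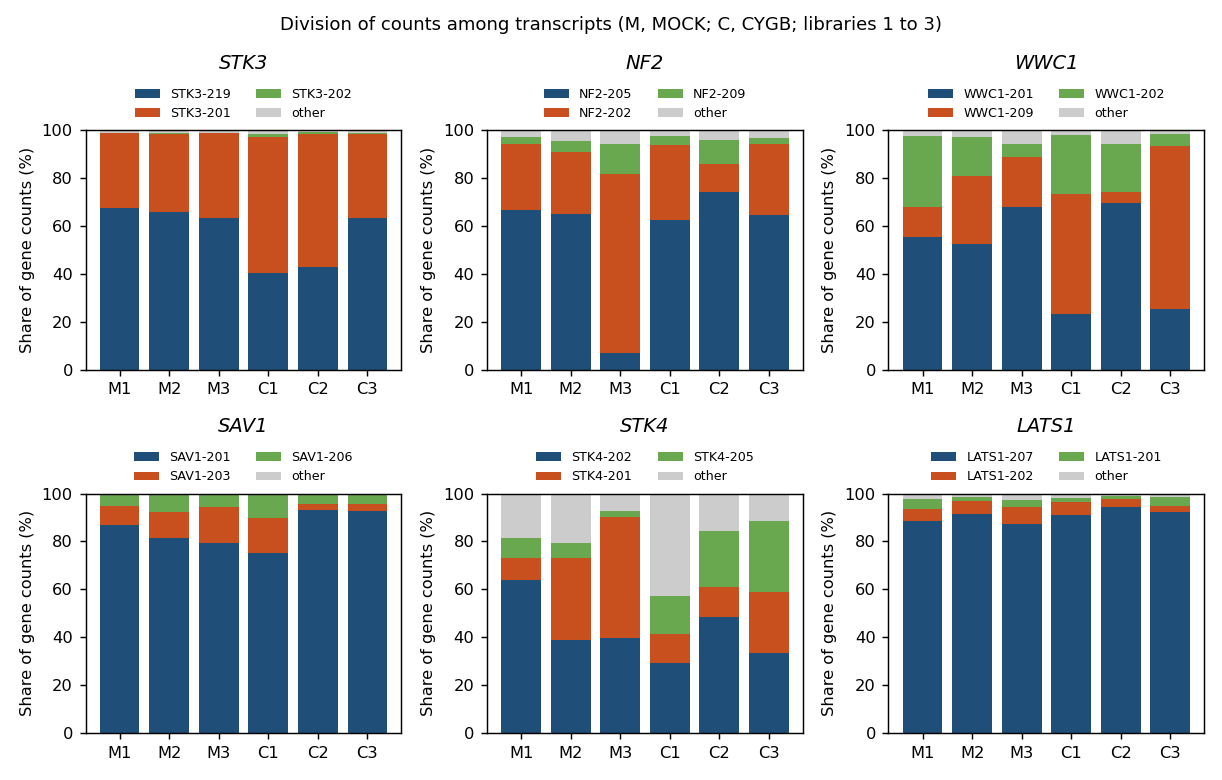
Share of the counts (percent, y axis) of 6 cascade genes held by their 3 most abundant transcripts and by all others, as stacked bars per library (M, MOCK; C, CYGB). The bars of STK3-219 are 63.3 to 67.4% in MOCK and 40.2 to 63.2% in CYGB, and NF2-205 is at 6.99% in MOCK replicate 3.

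NF2 was split between NF2-205 and NF2-202. NF2-205 held 66.5, 65.1 and 6.99% of the gene's counts in MOCK and 62.6, 74.3 and 64.5% in CYGB, so MOCK replicate 3 stood apart from the other 5 libraries. In that library NF2-205 had 169 counts against 2408 to 3068 elsewhere, and NF2-202 had 1803 against 483 to 1282. The log2 fold change of NF2-205 was 0.69 (SE 0.89, adjusted p = 1.00, edgeR). The following segments distinguish the transcripts. Capitals mark the bases that one transcript has and the other lacks, in the sense of the gene, with 15 flanking bases of the same transcript in lower case on each side. Within this pair, NF2-205 has the first segment, at chr22:29683020-29683064 on the plus strand, and NF2-202 has the second, a coding stretch at chr22:29639090-29639212. Whether other NF2 transcripts carry these segments was not examined. Sequences are from the GENCODE 29 transcripts (GRCh38).
NF2-205: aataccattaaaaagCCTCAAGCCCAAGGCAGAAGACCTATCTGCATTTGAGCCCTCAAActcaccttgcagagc
NF2-202: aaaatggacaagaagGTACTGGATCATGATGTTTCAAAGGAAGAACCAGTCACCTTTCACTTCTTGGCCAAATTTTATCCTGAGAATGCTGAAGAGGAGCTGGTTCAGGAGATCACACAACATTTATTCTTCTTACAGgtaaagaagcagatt
Of the 150-base windows, 4.01% of NF2-205 and 2.54% of NF2-202 occur in no other transcript.

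WWC1 counts were divided among WWC1-201, WWC1-209 and WWC1-202. WWC1-201 had 4325, 2673 and 5633 counts in MOCK and 2118, 2276 and 2453 in CYGB, lower in all CYGB libraries, with a log2 fold change of -0.90 (SE 0.30, unadjusted p = 0.0268, adjusted p = 1.00, edgeR). WWC1-209 had 974, 1430 and 1728 counts in MOCK and 4597, 147 and 6582 in CYGB, so CYGB replicate 2 was below and the other CYGB libraries above every MOCK library. As a share of the gene, WWC1-201 took 55.4, 52.6 and 68.0% in MOCK and 23.2, 69.6 and 25.3% in CYGB, which overlapped (exact permutation p = 0.4). Among the differences between the transcripts is a short coding segment at chr5:168464711-168464728 (plus strand) that WWC1-209 has and WWC1-201 lacks, given here with the same use of capitals.
WWC1-209: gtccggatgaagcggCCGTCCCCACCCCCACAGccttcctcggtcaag
No 150-base window of WWC1-209 or WWC1-202 was free of other transcripts, against 42.4% of those of WWC1-201.

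SAV1 was held mostly by SAV1-201, with 3072, 2690 and 2403 counts in MOCK and 1598, 4971 and 4288 in CYGB. Its share was 87.0, 81.5 and 79.5% in MOCK and 75.1, 93.0 and 92.9% in CYGB, and CYGB replicate 1 was again on the opposite side from the other CYGB libraries. SAV1-203 had 282, 362 and 446 counts in MOCK and 312, 148 and 128 in CYGB, with a log2 fold change of -0.89 (SE 0.44, unadjusted p = 0.0954, edgeR). A coding segment at chr14:50665510-50665619 (minus strand) is in SAV1-201 and not in SAV1-203, with the same use of capitals.
SAV1-201: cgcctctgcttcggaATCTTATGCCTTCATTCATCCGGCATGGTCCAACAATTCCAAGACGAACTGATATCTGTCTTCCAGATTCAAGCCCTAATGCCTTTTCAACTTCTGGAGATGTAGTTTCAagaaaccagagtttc
The share of 150-base windows found in that transcript alone was 37.5% for SAV1-201 and 59.8% for SAV1-203.

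STK4-202 had 275, 81 and 295 counts in MOCK and 35, 118 and 111 in CYGB, and STK4-201 had 39, 71 and 375 against 14, 31 and 85. STK4-202 held 64.0, 38.9 and 39.7% of the gene in MOCK and 29.4, 48.4 and 33.2% in CYGB, and the groups overlapped (exact permutation p = 0.4). Neither transcript passed the test, with log2 fold changes of -1.33 (SE 0.71) and -1.91 (SE 1.09). The nonsense-mediated decay transcript STK4-205 had 37, 13 and 21 counts in MOCK and 19, 57 and 100 in CYGB. It held 8.61, 6.25 and 2.82% of the gene in MOCK and 16.0, 23.4 and 29.9% in CYGB. These shares did not overlap, while its CPM values did (log2 fold change 1.27, SE 0.73, unadjusted p = 0.137, edgeR). Shares of transcripts other than the most abundant were not tested, and how often they do not overlap over all genes was not counted. STK4-205 was named after its values were seen. It had at most 100 counts in a library, and its share also follows the counts of STK4-202 and STK4-201. The segment at chr20:45053086-45053180 (plus strand), partly coding, is in STK4-201 and not in STK4-202, in capitals as before.
STK4-201: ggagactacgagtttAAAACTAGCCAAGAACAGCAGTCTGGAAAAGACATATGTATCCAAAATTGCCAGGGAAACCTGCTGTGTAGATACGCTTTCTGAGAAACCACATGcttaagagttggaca
Of the 150-base windows, 0.258% of STK4-202 and 12.9% of STK4-201 are in no other transcript.

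The rest of the pathway was read from lists of 88 other genes, all of which passed the filter on low counts. With edgeR none passed the threshold of the methods or the adjusted p of 0.05, against 0.565% and 0.055% of all genes, and 6 of 88 were below 0.05 before adjustment, against 907 of 19987 genes. The groups did not overlap for 9 of 88 (10.2%), 3 higher and 6 lower in CYGB, a share close to the 11.0% of all genes. DESeq2 gave 1 gene past the threshold of the methods, FAT1. The median log2 fold change over the 88 genes was -0.03 and the median size 0.11.

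Of 35 other inputs and scaffolds, 0 passed, and 1, PATJ, had groups that did not overlap (2.86%, against 11.0% of all genes). PATJ, a scaffold of the Crumbs polarity complex, had 4112, 5471 and 4893 counts in MOCK and 2828, 3735 and 4463 in CYGB (log2 fold change -0.41, SE 0.17, unadjusted p = 0.0479). FAT1, an atypical cadherin that acts upstream of the cascade, was named after its values were seen. It was at 37.4, 57.0 and 74.1 CPM in MOCK and 54.7, 309 and 488 CPM in CYGB, so CYGB replicate 1 lay inside the MOCK range and the other CYGB libraries far above it. Its log2 fold change was 2.34 (SE 0.76, 95% interval 0.50 to 4.18, unadjusted p = 0.0208, adjusted p = 0.963, edgeR), the largest on the lists.

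Of 28 inhibitors of the cascade, 0 passed, and the groups did not overlap for 4 (14.3%, against 11.0% of all genes). STRIP2, a subunit of the STRIPAK phosphatase complex that dephosphorylates MST kinases, had 775, 823 and 847 counts in MOCK and 659, 654 and 711 in CYGB (log2 fold change -0.30, SE 0.11, unadjusted p = 0.0391, edgeR). WWP1, a ubiquitin ligase that targets LATS1, had 5334, 6527 and 5919 counts in MOCK and 4739, 5630 and 4742 in CYGB (-0.25, SE 0.10, unadjusted p = 0.0494, edgeR). PDCD10, a component of the STRIPAK complex, was above MOCK in all CYGB libraries, but CYGB replicate 2 (65.0 CPM) barely exceeded MOCK replicate 3 (64.9 CPM). Its log2 fold change was 0.16 (SE 0.10, 95% interval -0.08 to 0.39, unadjusted p = 0.155, edgeR). These 3 genes had adjusted p values of 0.963.

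Downstream, 0 of 11 effectors and partners passed. For 2 the groups did not overlap (18.2%, against 11.0% of all genes), both lower in CYGB. CSNK1E, a casein kinase that acts on YAP1 after LATS, had 6011, 6657 and 6458 counts in MOCK and 5513, 5795 and 6027 in CYGB (log2 fold change -0.16, SE 0.07, unadjusted p = 0.0472, edgeR), and the other was FBXW11. YAP1, named as the substrate of the cascade, was at 191, 44.0 and 169 CPM in MOCK and 167, 175 and 154 CPM in CYGB, with a log2 fold change of 0.30 (SE 0.50, 95% interval -0.92 to 1.52, adjusted p = 0.976). MOCK replicate 2 was the low library, and the others overlapped.

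Of 16 transcriptional targets of YAP1 and TAZ, 0 passed, with a median log2 fold change of -0.0041. For 2 the groups did not overlap (12.5%, against 11.0% of all genes), 1 in each direction. NT5E, an ecto-enzyme, had 10358, 12477 and 11596 counts in MOCK and 12571, 13667 and 13580 in CYGB (log2 fold change 0.19, SE 0.07, unadjusted p = 0.0307, edgeR). AREG, an EGFR ligand, had 31030, 34199 and 34411 counts in MOCK and 24566, 30276 and 31453 in CYGB (-0.23, SE 0.10, unadjusted p = 0.0517, edgeR). The widely used targets CYR61 and CTGF, named for that reason, had log2 fold changes of 0.01 (SE 0.11) and -0.01 (SE 0.21).

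**Figure D4:**
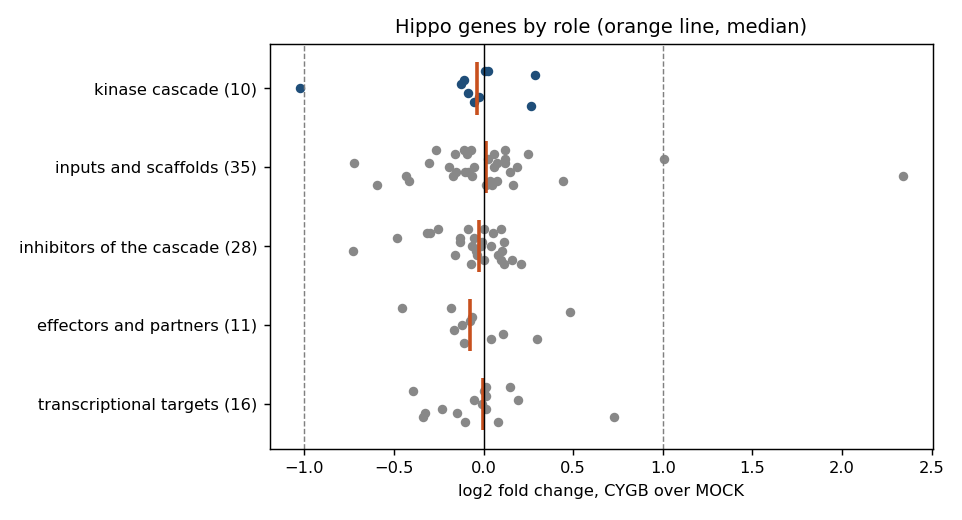
Log2 fold change (CYGB over MOCK) of the 10 cascade genes and of the other Hippo pathway genes by role, with 1 point per gene and an orange line at each median. The x axis is the log2 fold change and the rows are the roles. The medians of the 4 lists lie between -0.08 and 0.01, and FAT1, at 2.34, is the farthest point from 0.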

How the data were processed

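RNA was sequenced as 150-base paired-end reads from 3 MOCK and 3 CYGB HCT116 libraries, grouped by their labels. What the authors deposited is a single matrix of read counts for transcripts, not normalized. Their processing notes list HISAT, HISAT2, DESeq2 and hg19; the counting tool and the tool versions are not given in the sources used here. All 79 member transcripts have the positions of GENCODE 29 (GRCh38), as do 99.5% of 151393 shared transcripts, so GRCh38 coordinates are printed. How reads were divided among isoforms is not stated, which bears on every transcript value and less on the gene sums. Strand use in counting is not stated, and STK3, SAV1, LATS1 and TAOK1 share exon positions with opposite-strand genes of low count.

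The 21225 transcripts without a gene, 18.6 to 19.5% of a library's counts, were left out. Counts were summed per gene, normalized by TMM, filtered with filterByExpr (minimum count 10) and tested with edgeR 4.0.16 (quasi-likelihood test, R 4.3.3), for genes and for transcripts, with Benjamini-Hochberg adjustment over all features. DESeq2 1.42.0 was an alternative. The SE was the log2 fold change over the square root of F. CPM values use library sizes of counts with a gene, scaled by TMM, and TPM values each transcript's GENCODE length. Ratios and shares were compared with exact two-sided permutation tests over the libraries (SciPy 1.17.1). The fits were tested on simulated data. The text names all 10 members, their most abundant transcripts and those past the threshold, and pathway genes past the threshold or, up to 5 per direction, without overlap between groups; 1 such gene is not reported here, and other exceptions are stated, or are transcripts that share a member's counts, named after their values were seen. The members and lists were chosen with earlier results of these data known. Other settings tried were blocking on the replicate number, DESeq2 or its size factors, no filter or a mean count of 50, omitting each library, and including transcripts without a gene.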

Additional observations from a re-analysis of the deposited data

How the results depend on the processing

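No cascade gene was called under any alternative, with adjusted p between 0.784 and 1 over the edgeR and DESeq2 settings. Over all features tested, the biological coefficient of variation was 36.6% for genes and 78.9% for transcripts. DESeq2 put 1 member transcript (STK3-202, log2 fold change 2.42) and 1 other pathway gene (FAT1, 2.34) beyond the threshold used in the study. With 1 library omitted at a time there were 0 to 1 member transcripts past it, namely WWC1-201 (-1.16) without MOCK replicate 2, STK4-204 (-7.24) without CYGB replicate 1 and WWC1-209 (2.01) without CYGB replicate 2. There were likewise 0 to 1 other pathway genes, FAT1 (2.83) without CYGB replicate 1 and RASSF4 (-1.07) without CYGB replicate 3. STK4-204 had 18, 14 and 24 counts in MOCK and 18, 0 and 0 in CYGB replicates 1 to 3. Its value of -7.24 therefore sets low counts against 0 and is not a measured ratio. The estimates of 5 members changed sign when 1 library was left out. Log2 fold changes ranged from -0.12 to 0.031 for STK3, -0.0092 to 0.56 for SAV1, -0.029 to 0.065 for LATS1, -0.16 to 0.042 for LATS2 and -0.19 to 0.37 for WWC1. The log2 ratio differences ranged from -0.066 to 0.16 for LATS1 to LATS2 and from -0.013 to 0.084 for MOB1A to MOB1B, and the share differences from -0.069 to 0.052 points for LATS2, -0.0785 to 0.112 for MOB1A and -0.832 to 1.05 for MOB1B. From its most abundant transcript alone WWC1 was at -0.90, a value that leaves out the counts of WWC1-209 and WWC1-202. With length taken from the most abundant transcript, STK4 in MOCK was at 2.98 TPM in place of 7.79, and WWC1 at 40.7 in place of 55.6. With the replicate number as a block, WWC1 was at -0.082 and 0 members were called. Libraries of 1 number correlated at 0.0159, 0.00487 and 0.0253 in their deviations from the group means, so they did not deviate together over the genes tested. These values cannot show whether libraries of 1 number were prepared together. The cause of the changes between settings was not tested.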
